A study of Bombus terrestris with 70 samples.

Results

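The genes described here are 174 of the 10230 genes measured in all 3 tissues sampled from Bombus terrestris queens, which were brain, fat body and ovary. Bombus terrestris is the buff-tailed bumblebee, whose colonies are headed by a single egg-laying queen. The genes were chosen by their high level in the brain beside a low level in the fat body and the ovary, in control queens at the earlier time point. Shares, in ppm of the library total, were averaged over those queens. A gene was taken as brain-enriched where log2(ppm + 0.1) in the brain exceeded the larger of the fat body and ovary values by more than 5, and its brain level exceeded 20 ppm. This gave 215 genes. LOC100644055 and the 40 genes with the highest Pearson correlation with it across 22 brain libraries were then set aside, which left the 174 members. The levels in control TP1 and the correlations with LOC100644055 therefore chose the members and are given only as a description.

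Messenger RNA was sequenced from 1 tissue of a single queen per library. The groups were egg removal TP2 (5 brain, 6 fat body and 6 ovary libraries), control TP2 (5, 4 and 6), egg removal TP1 (6 of each tissue) and control TP1 (6 of each tissue). Eggs were taken from egg removal queens, which was meant to raise the costs of reproduction, and were taken and put back in control queens, so the disturbance of the nest was shared by all groups. TP1 was reached at 10% and TP2 at 60% deaths in the cohort. The labels give no age in days, no strain and no tissue part finer than the whole brain, fat body or ovary. Estimated depth was 24.05 to 56.02 M reads per brain library, 12.12 to 60.25 M per fat body library and 19.61 to 68.02 M per ovary library.

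An insect brain is made of neurons and glia, and genes with high expression there commonly serve synaptic transmission, excitability, neuropeptide signalling or sensory processing. The fat body stores nutrients and makes yolk and other blood proteins, and the ovary makes the eggs. Products of single genes are not described below, because the tables name the members only by LOC identifiers. None of the members had another symbol in the RefSeq gene table, which matched 170 of the 174, and no sequence of a member could be shown. The tissue content of the libraries was described by the tissue lists that the same steps give. Control TP1 libraries chose those lists, so the values below are from the other groups. Genes enriched in the ovary (172 genes) summed to 375.6 to 744.6 ppm in the brain libraries. In the ovary they summed to 69792 to 120185 ppm in egg removal libraries and to 1788 to 103123 ppm in control TP2. Genes enriched in the fat body (63 genes) summed to 1118 to 23731 ppm in the brain libraries. Egg removal libraries reached the highest values, 11878 ppm at TP2 and 23731 ppm at TP1. Whether fat body tissue in the brain samples had a part in the results below was not tested.

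The members spanned a wide range of levels. In brain control TP1 they lay between 20.27 and 11737 ppm, with a median of 147.1 ppm. Their median was 0.925 ppm in the fat body and 0.451 ppm in the ovary of the same group. Levels are not corrected for transcript length, so an order between genes is an order of read shares and not of transcripts. The 10 highest members held 52.6% of the 85423 ppm of all members. LOC100646048 had the highest share with 11737 ppm, followed by LOC105666000 with 11118 ppm, LOC105667095 with 5613 ppm and LOC100645836 with 3506 ppm. The next were LOC100647368, LOC100651172, LOC100643981, LOC100649123, LOC100647316 and LOC100650743, between 3136 and 1818 ppm.

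Members near the limits of the rule were few steps away from genes that missed it. The smallest tissue differences among members were 5.065 for LOC100642628, 5.055 for LOC105666528 and 5.047 for LOC100644632, and the closest genes outside were LOC100644705 (4.995), LOC100652263 (4.991) and LOC100650789 (4.99). The lowest brain levels among members were 22.05 ppm for LOC100631095, 21.87 ppm for LOC100651432 and 20.27 ppm for LOC100651940, against 19.76 ppm for LOC100647608, 19.35 ppm for LOC100650001 and 17.21 ppm for LOC100650120 outside. The highest correlations with LOC100644055 among members were 0.27 for LOC100644271, 0.26 for LOC100647127 and 0.25 for LOC100649749, against 0.29 for LOC100643341, 0.28 for LOC110119166 and 0.28 for LOC100644894, which were set aside.

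The members were not all independent of LOC100644055. Their correlations with it ran from -0.80 to 0.27 with a median of -0.25. For 120 of 174 the correlation was below 0, for 58 it was below -0.4 and for 20 below -0.6, and only 65 lay within 0.2 of 0. Among the other 6430 brain genes above 20 ppm, 3313 were below 0, 1340 below -0.4, 513 below -0.6 and 2053 within 0.2 of 0. The rule took the genes of highest correlation out of the members but not out of these 6430. A lean of the members to negative values is therefore favoured by the choice, and nothing is read from the contrast. The lowest values were those of LOC100642954 (-0.80), LOC100645836 (-0.76), LOC100648547 (-0.73), LOC100648767 (-0.73) and LOC100649123 (-0.71). All values rest on the same 22 libraries and share their scaling. The members are therefore called here brain-enriched genes left after the removal of the genes that followed LOC100644055, and not genes independent of it.

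LOC100644055 itself split the brain libraries. It lay between 57888 and 233403 ppm in 9 libraries and between 140.8 and 4818 ppm in the other 13. The 9 libraries were 4 of 5 in egg removal TP2, 0 of 5 in control TP2, 3 of 6 in egg removal TP1 and 2 of 6 in control TP1. In these libraries the members summed to 30338 to 75739 ppm, and in the other 13 to 78113 to 102517 ppm. On the deposited scale, which is not a share of the library, the 2 ranges of the members' sum were 2.34 to 3.18 M and 2.82 to 3.61 M and overlapped. Because high libraries and egg removal at TP2 nearly coincide, the 2 cannot be told apart in that comparison.

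**Figure D1:**
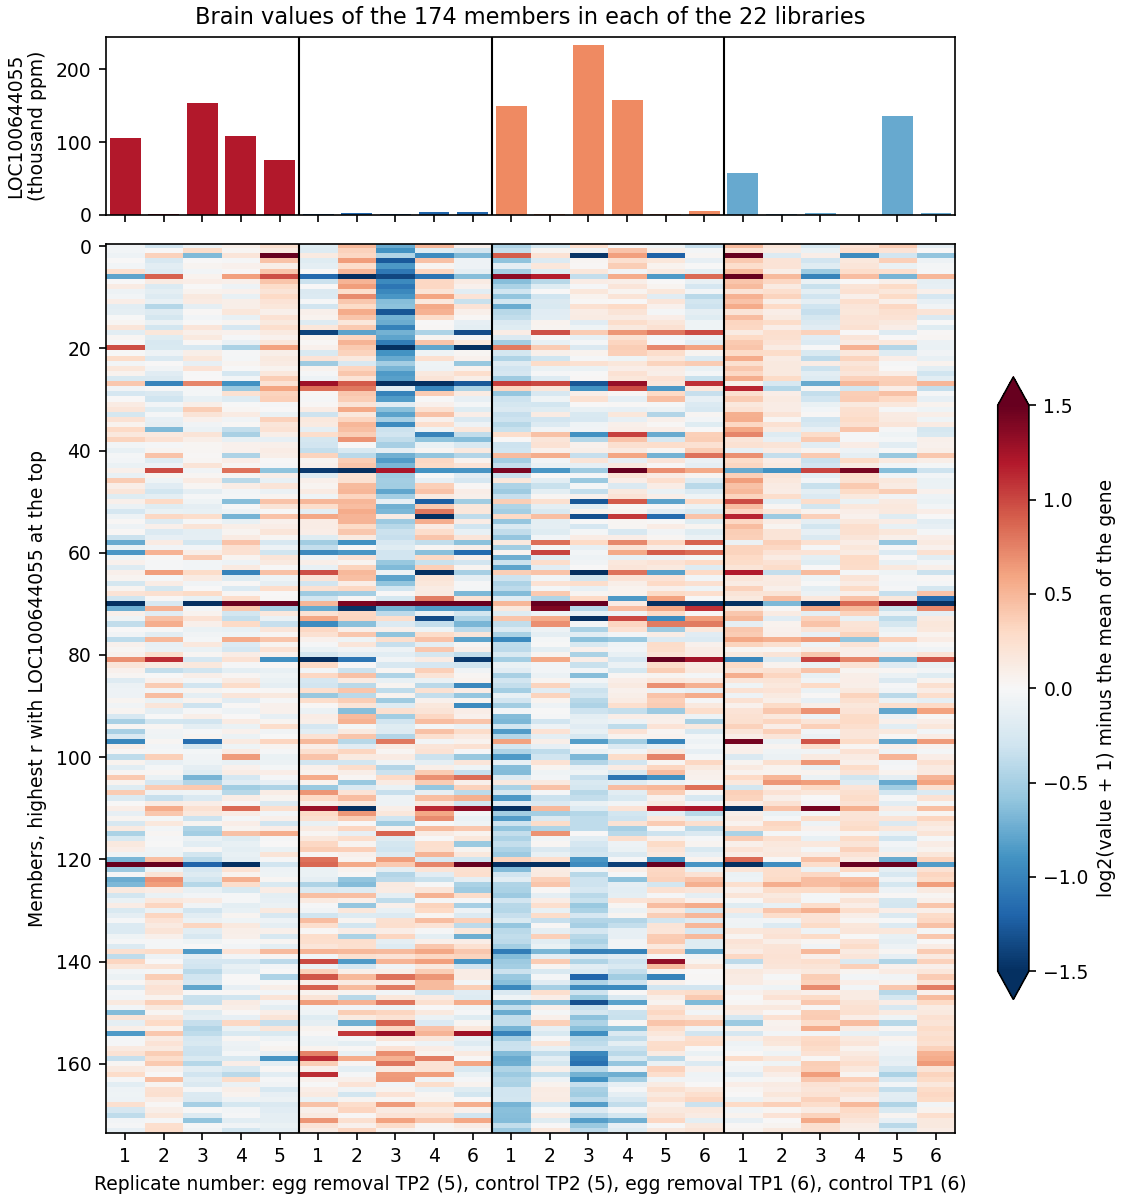
Upper bars give the share of LOC100644055 (ppm divided by 1000) in each of the 22 brain libraries, ordered as egg removal TP2, control TP2, egg removal TP1 and control TP1. The lower panel gives log2(value + 1) of the 174 members minus the mean of each gene, with members ordered by their correlation with LOC100644055. Rows at the bottom, with the lowest correlations, are blue in egg removal TP1 replicates 1 and 3, and control TP2 replicate 3 is blue in the top rows.

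Members at the 2 ends of this order differed in how they varied. The 58 with a correlation below -0.4 had a median pairwise correlation of 0.50 with each other and held 58958 ppm of brain control TP1. The 65 within 0.2 of 0 had a median pairwise correlation of 0.33 and held 14129 ppm. For the 15 above 0.2 it was 0.81, and they held 2480 ppm. These 15 lay below their own gene means in 15 of 15 cases in control TP2 replicate 3, by a median of 0.90 on the log2 scale. In the other 21 brain libraries their median deviation lay between -0.42 and 0.46. Of the 58 members below -0.4, all 58 lay under their means in egg removal TP1 replicate 3 and 57 in replicate 1, the highest and another of the LOC100644055-high libraries. These subsets were picked by their correlation with LOC100644055 over the same libraries. Likeness within the 2 outer subsets, and low values of the 58 where LOC100644055 is high, are favoured by that choice and are only a description. Over all members, the median pairwise correlation was 0.24 in 15051 pairs, and 0.24 for deviations from group means.

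Spread between queens of a group also differed between members. The coefficient of variation within brain groups had a median of 16.3% over the members, against 10.5% over the 6605 brain genes above 20 ppm. The most even members were LOC100645490 (7.64%), LOC100646283 (8.10%) and LOC100644619 (9.05%). LOC100644360 was the most variable at 122.9%, followed by LOC100652279 (108.4%), LOC100649749 (77.8%), LOC100647281 (73.2%) and LOC100649364 (56.5%). LOC100644360 had normalized counts of 103.8, 2443, 124.4, 7991 and 36683 in egg removal TP2, against 4068, 7636, 45328, 20757 and 48758 in control TP2. At TP1 it ran from 93.7 to 15661 with a median of 3589 in egg removal and from 224.9 to 12421 with a median of 1325 in control. Its values overlapped widely between groups.

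Brain enrichment was read again in the 3 groups that did not choose the members. The difference between tissues exceeded 5 for 152 of 174 members in egg removal TP2 (2.19% of all genes), for 111 in control TP2 (1.46%) and for 158 in egg removal TP1 (2.69%). The median difference was 6.41 in egg removal TP2, 5.70 in control TP2 and 7.19 in egg removal TP1. The lowest brain library exceeded the highest fat body and ovary library for 174 members in egg removal TP2 (17.4% of all genes), 168 in control TP2 (15.8%) and 174 in egg removal TP1 (14.2%). In all 3 groups 105 members stayed over 5, and 9 were under 5 in all 3. A further 43 were under 5 in control TP2 alone. Read against 1 other tissue at a time, 146 members exceeded 5 against the fat body and 120 against the ovary in control TP2, compared with 168 and 157 in egg removal TP2. No test was made of these counts.

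LOC100649414 had the smallest difference in control TP2, at -0.59. It averaged 26.71 ppm in the brain, 1.506 ppm in the fat body and 40.3 ppm in the ovary of that group, and the ovary mean rests on ovary replicate 4 (128.3 ppm). Without that library the ovary mean was 22.7 ppm, under the brain mean, and the difference was 0.23. LOC100644056 (0.70) and LOC100648676 (1.08) came next, with ovary means of 18.74 and 63.52 ppm, and had differences of 1.63 and 1.30 without the same library. Without ovary replicates 1 and 4 of control TP2, 118 members exceeded 5 in place of 111. LOC100644056 was chosen after its values were seen.

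**Figure D2:**
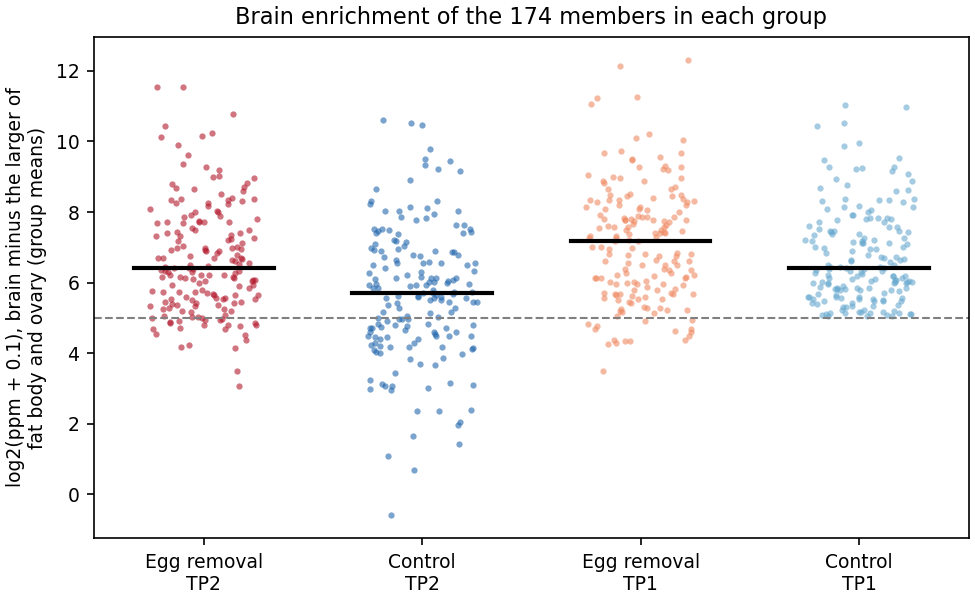
Each point is 1 of 174 members, and the vertical axis is log2(ppm + 0.1) in the brain minus the larger of the fat body and ovary values, from group means, with a black bar at the median. The dashed line marks 5, which every member exceeds in control TP1 because that group chose them, and 111 members exceed it in control TP2.

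The brain of egg removal and control queens was compared at TP2 to ask how the treatment bore on late life. Of 174 members, 3 were higher and 10 lower in egg removal with limma at an adjusted p under 0.05 (adjusted over all 10388 genes), where 8.57% of all genes were called, 3.68% higher and 4.89% lower. The members' 7.47% called is near that background. The median log2 change of the members was -0.001, against 0.002 over all genes, and 87 of 174 lay below 0. Groups did not overlap with higher values in egg removal for 2 members (3.0% of all genes) and with lower values for 4 (4.14%). The largest change among the higher ones was that of LOC100644749, and LOC100651245 and LOC100645444 led the lower ones. The comparison is not fully independent of the choice of members, since the correlation with LOC100644055 used these libraries. LOC100644055 was high in 4 of 5 egg removal and 0 of 5 control libraries at TP2, and the genes of highest correlation were set aside. Fewer higher than lower members are therefore favoured by the choice, and nothing is read from that split.

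LOC100644749 had normalized counts of 13377, 16802, 15766, 15687 and 16424 in egg removal TP2, against 5707, 8545, 9119, 10868 and 5955 in control TP2. Every egg removal library was above every control library. The log2 change was 1.00 (SE 0.17, adjusted p = 0.00154, limma). LOC100644632 had 24339, 25216, 23155, 25803 and 27463 in egg removal TP2, against 17307, 21256, 17691, 23996 and 16929 in control TP2. The 2 groups overlapped only through control replicate 4, and the log2 change was 0.39 (SE 0.11, adjusted p = 0.0275, limma). LOC100644903 had 25577, 29105, 24918, 26506 and 25544 in egg removal TP2, against 20482, 21947, 22054, 20347 and 19003 in control TP2. Its groups did not overlap, and its log2 change was 0.34 (SE 0.10, adjusted p = 0.0403, limma). These 3 had correlations with LOC100644055 between -0.21 and 0.19.

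Among the lower members, LOC100651245 had 1751, 4185, 2420, 2696 and 2692 in egg removal TP2, against 3200, 6574, 7588, 4491 and 7614 in control TP2. Replicate 2 of egg removal lay among the control values, and the log2 change was -1.08 (SE 0.25, adjusted p = 0.0120, limma). LOC100648547 had 26671, 27196, 18302, 24700 and 25070 in egg removal TP2, against 43663, 32543, 41697, 36849 and 41307 in control TP2. All control libraries exceeded all egg removal libraries, with a log2 change of -0.69 (SE 0.18, adjusted p = 0.0227, limma). LOC100649251 had 2354, 3140, 1583, 2485 and 2878 in egg removal TP2, against 5029, 3778, 4643, 3771 and 3514 in control TP2. Its groups did not overlap either, and its log2 change was -0.76 (SE 0.20, adjusted p = 0.0248, limma). LOC100645444 (log2 change -0.88) and LOC100647621 (-0.43) were lower too, along with LOC100644619, LOC100647094, LOC100647945, LOC100651837 and LOC100647964, which the rule for named genes did not select in this comparison. The lowest log2 change of any member was that of the variable LOC100644360, at -3.44 (SE 1.65), which did not pass (adjusted p = 0.201, limma). The 10 lower members had correlations with LOC100644055 between -0.73 and -0.36. Negative values are favoured there, because the correlations use the same libraries, and they are only a description.

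**Figure D3:**
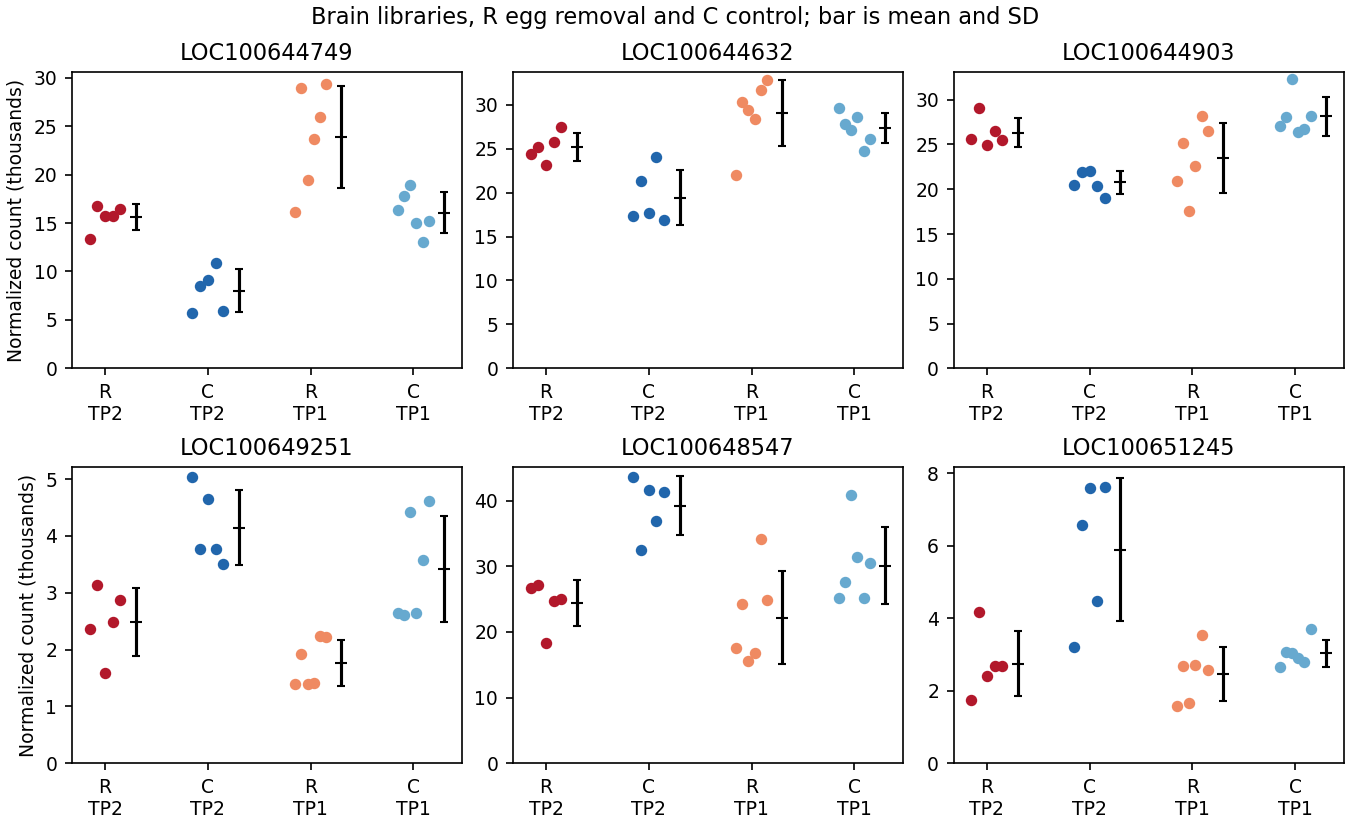
Normalized counts (divided by 1000, axes from 0) of 6 members in each brain library, for egg removal TP2, control TP2, egg removal TP1 and control TP1, with a bar at the mean and SD. The upper 3 genes have their lowest mean in control TP2, and LOC100649251 and LOC100648547 lie higher in control TP2 than in egg removal TP2 without overlap.

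The set of members called at TP2 depended on how LOC100644055 entered the fit. With log2(LOC100644055 + 1) as a covariate, 13 members were higher and 2 lower in egg removal TP2, where 7.18% and 6.36% of all genes were called, and 5 of the 13 kept their call. These were LOC100644749, LOC100644632, LOC100644903, LOC100647621 and LOC100651245, each in the same direction as before, and the other 10 called there were different genes. Leaving out the 9 libraries high in LOC100644055 left 1 egg removal library at TP2, so the 1 call of that fit says nothing about the 13. Scaling every library to the same total gave 0 calls among members, with a median of -0.311, and shifted the median of all genes to -0.304. Single libraries changed the count of 13 as well. It was 5 without egg removal TP2 replicate 3, 7 without replicate 4 and 8 without replicate 5. Among control TP2 libraries it was 4 without replicate 1, 21 without replicate 3, 6 without replicate 4 and 8 without replicate 6. Here and below, counts from fits without 1 library are given without the share of all genes called there. A shift in them is therefore not read as particular to the members. Over the 10 fits that each left out 1 library, LOC100644749, LOC100651245 and LOC100645444 kept their call in 10, LOC100648547 in 8, LOC100649251 in 7, LOC100647621 in 6, LOC100644632 in 5 and LOC100644903 in 1.

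At TP1 the same comparison covered the earlier phase. Among the members, 0 were higher and 6 lower in egg removal (limma, adjusted p under 0.05), where 2.37% of all genes were called, 0.712% higher and 1.66% lower. Groups did not overlap, with lower values in egg removal, for 6 members (1.65% of all genes). The members' median log2 change was -0.20, against 0.004 over all genes, and 147 of 174 lay below 0. Control TP1 brain libraries chose the members by their high levels and are 1 arm of this comparison, so lower values in egg removal are favoured by the choice. The counts, the median and the p-values at TP1 are therefore a description of the fit over all genes, and nothing about the members as a set is read from them. The lower members were LOC100649812, LOC100651350, LOC100649251, LOC100647094, LOC100647233 and LOC100647210, with correlations with LOC100644055 between -0.57 and -0.38.

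LOC100649812 ran from 2532 to 3796 with a median of 2846 in egg removal TP1, against 4012 to 4687 with a median of 4424 in control TP1. The groups did not overlap, and the log2 change was -0.59 (SE 0.10, adjusted p = 0.00431, limma). LOC100649251 ran from 1392 to 2230 with a median of 1668 in egg removal TP1, against 2603 to 4615 with a median of 3112 in control TP1. It changed by -0.94 (SE 0.19, adjusted p = 0.0103, limma), again without overlap, and it was 1 of 2 members lower at both time points. LOC100647094, the other, ran from 2925 to 3489 with a median of 3169 in egg removal TP1, against 3830 to 4924 with a median of 4013 in control TP1. It changed by -0.40 at TP1 (SE 0.08, adjusted p = 0.0129, limma) and by -0.32 at TP2 (SE 0.09, adjusted p = 0.0299, limma). LOC100651350 changed by -0.86 and LOC100647233 by -0.91, and in both 1 egg removal library, replicate 5, reached into the control range.

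All 6 kept their call with LOC100644055 as a covariate, a fit with 1 higher and 7 lower members (1.67% and 2.13% of all genes). Without the 9 libraries high in LOC100644055, 0 members were called, where 0.0578% of all genes were, and the log2 changes of the 5 named members then lay between -0.70 and -0.41. Scaling to the same total also gave 0 member calls, with a median of -0.488 over the members and -0.286 over all genes. Leaving out 1 library at a time gave 4 to 9 member calls, apart from 21 without egg removal TP1 replicate 5. LOC100647233 kept its call in 5 of these 12 fits, and the other 4 named members in 12.

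**Figure D4:**
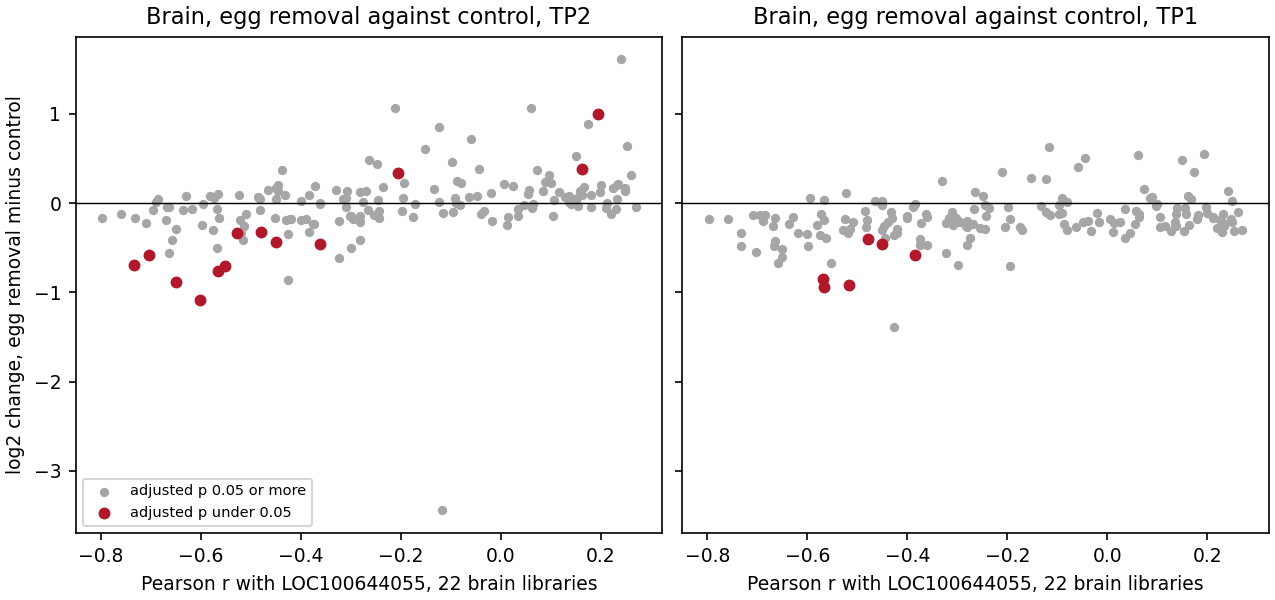
Each point is 1 of 174 members, with its correlation with LOC100644055 over 22 brain libraries on the horizontal axis and its log2 change, egg removal minus control, on the vertical axis, at TP2 (left) and TP1 (right). Red points had an adjusted p under 0.05, and the lower red points have correlations between -0.73 and -0.36 at TP2 and between -0.57 and -0.38 at TP1. Both axes use the same libraries. LOC100644055 was high in 4 of 5 egg removal and 0 of 5 control libraries at TP2, so negative correlations of lower members are favoured there.

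Change with age was read as TP2 against TP1 within a treatment. In control queens 0 members were higher and 5 lower at TP2 (limma), where 2.57% of all genes were called, 1.74% higher and 0.828% lower. Groups did not overlap, with lower values at TP2, for 6 members (1.12% of all genes). The median over members was -0.11, against -0.008 over all genes. Control TP1 is the group whose brain libraries chose the members by their high levels, so lower values at TP2 are favoured by the choice, and these values too are a description. LOC100644632 was close to the limit of the choice, with a tissue difference of 5.047 in control TP1 against the required 5. The 5 were LOC100644749, LOC100644632, LOC100644903, LOC100644257 and LOC100651550, and the TP2 and TP1 values of each did not overlap. The first 3 are the members that were higher in egg removal at TP2, and both comparisons use the same control TP2 libraries.

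LOC100644749 had the values given above in control TP2, against 13056 to 18966 with a median of 15739 in control TP1, a log2 change of -1.03 (SE 0.17, adjusted p = 0.00204, limma). LOC100644632 ran from 24772 to 29586 with a median of 27478 in control TP1 and changed by -0.50 (SE 0.10, adjusted p = 0.00997, limma). LOC100644903 ran from 26354 to 32327 with a median of 27596 in control TP1 and changed by -0.44 (SE 0.10, adjusted p = 0.0176, limma). LOC100644257 had 6511, 3985, 6762, 6184 and 6173 in control TP2, against 8773 to 18147 with a median of 13907 in control TP1. It changed by -1.19 (SE 0.29, adjusted p = 0.0296, limma). LOC100651550 had 1980, 2103, 3140, 2479 and 1725 in control TP2, against 3338 to 4829 with a median of 4433 in control TP1, and changed by -0.93 (SE 0.23, adjusted p = 0.0321, limma).

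None of the 5 control TP2 brain libraries was high in LOC100644055. All 5 members kept their call without the 9 high libraries, in a fit with 11 lower members (0.983% of all genes). They also kept it with LOC100644055 as a covariate, in a fit with 12 lower and 1 higher (3.03% and 3.29% of all genes). With that covariate the 5 were also all higher in egg removal at TP2. Scaling to the same total gave 0 calls. In 11 fits that each left out 1 library, LOC100644749 and LOC100644632 kept their call in 11, LOC100644903 in 10, LOC100644257 in 5 and LOC100651550 in 3. Of control TP2 libraries, leaving out replicate 2 gave 3 calls and replicate 6 gave 2, and of control TP1 libraries replicates 3, 4 and 6 gave 3 each.

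The levels of these 5 moved together, with pairwise correlations between 0.49 and 0.91 over the 22 brain libraries. All 5 were picked as lower in control TP2 than in control TP1, which favours positive correlations over these libraries. The genes most like LOC100644749 over these libraries were LOC100648980 (r = 0.93), LOC100644632 (0.91), LOC100644623 (0.90), LOC100651550 (0.90) and LOC100644884 (0.90). LOC100644632 and LOC100651550 are members and the other 3 are not brain-enriched by the rule. The likeness is a description over libraries that share groups and scaling, and it was chosen after the values were seen.

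In egg removal queens, 0 members were called between TP2 and TP1 (limma), where 0.0481% of all genes were called. Without adjustment, 16 members and 607 genes in all had a p under 0.05, and the smallest adjusted p among members was 0.152. With egg removal TP1 replicate 5 left out, 2 members were called. For the interaction, the log2 age change of egg removal queens less the age change of control queens, limma called 0 members and 0.0% of all genes. Without adjustment, 6 members and 446 genes in all had a p under 0.05. The members' median interaction was 0.18, against 0.004 over all genes, with a smallest adjusted p of 0.277 among members. The control age change within it takes the control TP1 brain libraries that chose the members, so a positive median is favoured by the choice and nothing is read from it. No single member passed the test of a difference in age change between the treatments.

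Fat body values of the members were compared at TP2, where neither group chose them. A filter on a group mean of at least 1 kept 173 of 174 members. Of these, 0 were higher and 5 lower in egg removal (limma), where 4.6% of all genes were called, 2.31% higher and 2.29% lower. The median log2 change was -0.64, against -0.002 over all genes, and 141 of 173 lay below 0. The members summed to 141.3 to 542.5 ppm with a median of 377.5 ppm in egg removal TP2, against 1056, 461.9, 913.8 and 539.8 ppm in control TP2. The groups overlapped for the sum. LOC100644055 and the 40 genes set aside were also lower, at 61.21 to 166.1 ppm in egg removal against 168.7 to 284.5 ppm in control. Lower values are therefore not particular to the members. Ovary-enriched genes summed to 314.5 to 714.7 ppm against 398.2 to 1369 ppm. Fat-body-enriched genes summed to 197692 to 338763 ppm against 129303 to 231740 ppm. The part of these lists in the members' change was not tested. In a bulk sample, fewer cells of a type and less RNA per cell cannot be told apart.

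LOC100647621 was lower in both the brain and the fat body of egg removal queens at TP2. In the fat body it ran from 33.6 to 114.8 with a median of 57.66 in egg removal TP2, against 395.8, 199.7, 281.7 and 126.2 in control TP2. Its log2 change was -1.94 (SE 0.43, adjusted p = 0.0203, limma). LOC105666445 ran from 0 to 8.717 with a median of 5.379 in egg removal TP2, against 25.91, 24.49, 202.7 and 50.43 in control TP2. It changed by -3.49 (SE 0.81, adjusted p = 0.0232, limma). Both genes had no overlap between groups. LOC100650756 changed by -2.47 (SE 0.61, adjusted p = 0.0267), LOC100648875 by -2.19 (SE 0.55, adjusted p = 0.0286) and LOC100650672 by -1.77 (SE 0.47, adjusted p = 0.0377), all with limma. Groups did not overlap with lower values in egg removal for 7 members (2.0% of all genes) and with higher values for 1 (1.27%). Leaving out a single library gave between 0 calls, when control TP2 replicate 1 was dropped, and 23, when replicate 5 of that group was dropped. Control TP2 replicate 1 had the lowest estimated depth of the fat body libraries, 12.12 M reads. The other control TP2 libraries had 41.65 to 49.3 M. It also had the highest sum of the members, 1056 ppm, and the part of its depth in the calls was not tested. The count was 3 without egg removal TP2 replicate 2, 2 without replicate 3, 3 without replicate 4, 13 without replicate 5 and 10 without replicate 6, and 3 without control TP2 replicate 2 and 1 without replicate 3. In the 10 fits that each left out 1 library, LOC100647621 and LOC105666445 kept their call in 8, LOC100650756 in 7, and LOC100648875 and LOC100650672 in 4. A fit of the 2 groups alone gave 0. With every library scaled to the same total, 9 members were lower, including the 5, where 2.91% of all genes were lower. The median was then -0.893 over members and -0.266 over all genes.

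At TP1 in the fat body, where control libraries chose the members by their low values, 147 of 173 members lay below 0 with a median of -0.87, against -0.09 over all genes, and no test was made. Groups did not overlap with lower values in egg removal for 12 members (6.85% of all genes) and with higher values for 0 (10.4%).

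In the ovary at TP2, 112 members were lower and 1 higher in egg removal (limma), where 58.9% of all genes were called, 30.0% lower and 28.9% higher. The median log2 change over members was -1.57, against -0.04 over all genes, and 154 of 174 lay below 0. Of the 112, the log2 changes ran from -5.31 to -0.81 with a median of -2.26, and 65 were below -2. These are changes at low levels. The median member had 0.513 ppm in the ovary of egg removal TP2 and 1.947 ppm in control TP2, against 116.7 and 144.6 ppm in the brain of the same groups. Groups did not overlap for 31 members, all lower in egg removal (7.41% of all genes).

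LOC100649412 ran from 1.508 to 16.73 with a median of 6.638 in the ovary of egg removal TP2, against 35.55 to 694.2 with a median of 143.4 in control TP2. Its log2 change was -4.13 (SE 0.55, adjusted p = 2.08e-05, limma). LOC100649414 ran from 9.748 to 52.29 with a median of 33.51 in egg removal TP2, against 130 to 7723 with a median of 1421 in control TP2. It changed by -5.31 (SE 0.75, adjusted p = 2.78e-05, limma). LOC100648676, LOC100644476 and LOC100642289 changed by -4.30, -2.94 and -3.76. In all 5 genes the groups did not overlap. LOC100651474, the 1 higher member, ran from 32.95 to 89.44 with a median of 70.01 in egg removal TP2, against 13.24 to 70.1 with a median of 33.23 in control TP2, and changed by 1.05 (SE 0.40, adjusted p = 0.0274, limma) with overlapping groups. That call was lost without egg removal TP2 replicate 3 or 4 and without control TP2 replicate 4 or 5. The 2 members with the most ppm in the ovary of control TP2 were LOC100647368 and LOC100647956, which reached 22227 and 63337 in single libraries of that group.

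Control TP2 ovaries also differed in the marker lists of the other tissues. In the 6 control TP2 libraries, replicates 1 to 6, the members summed to 3478, 1366, 1444, 3017, 770 and 847 ppm, against 383.0 to 588.6 ppm in egg removal TP2. Genes enriched in the ovary summed to 1788, 29897, 36286, 1987, 103123 and 42445 ppm in these 6 libraries, against 69792 to 106562 ppm in egg removal TP2. Genes enriched in the fat body summed to 6395, 1483, 1685, 6243, 1931 and 646.2 ppm, against 766.5 to 1145 ppm in egg removal TP2. Replicates 1 and 4 were the highest for the members and for fat body genes and the lowest for ovary genes. They also had the lowest estimated depth of the ovary libraries, 19.61 and 23.67 M reads, against 43.57 M or more in the others. Their normalized totals, 62.07 and 60.19 M, were the highest, so few reads were scaled up most there. The part of these lists, and of depth, in the members' change was not tested. Without replicates 1 and 4, 82 members were lower and 2 higher, where 22.4% of all genes were lower and 22.55% higher. Of the 113, 81 kept their call. In replicate 5, where the ovary genes were within the range of the other groups, the members summed to 770 ppm, above every egg removal TP2 library. The fat body genes in replicate 5, at 1931 ppm, were also above every egg removal TP2 library. The 2 members with the most ovary ppm held 8.6% to 37.8% of the sum in control TP2, and without them the other members summed to 672 to 2580 ppm, against 377 to 530 ppm in egg removal TP2.

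**Figure D5:**
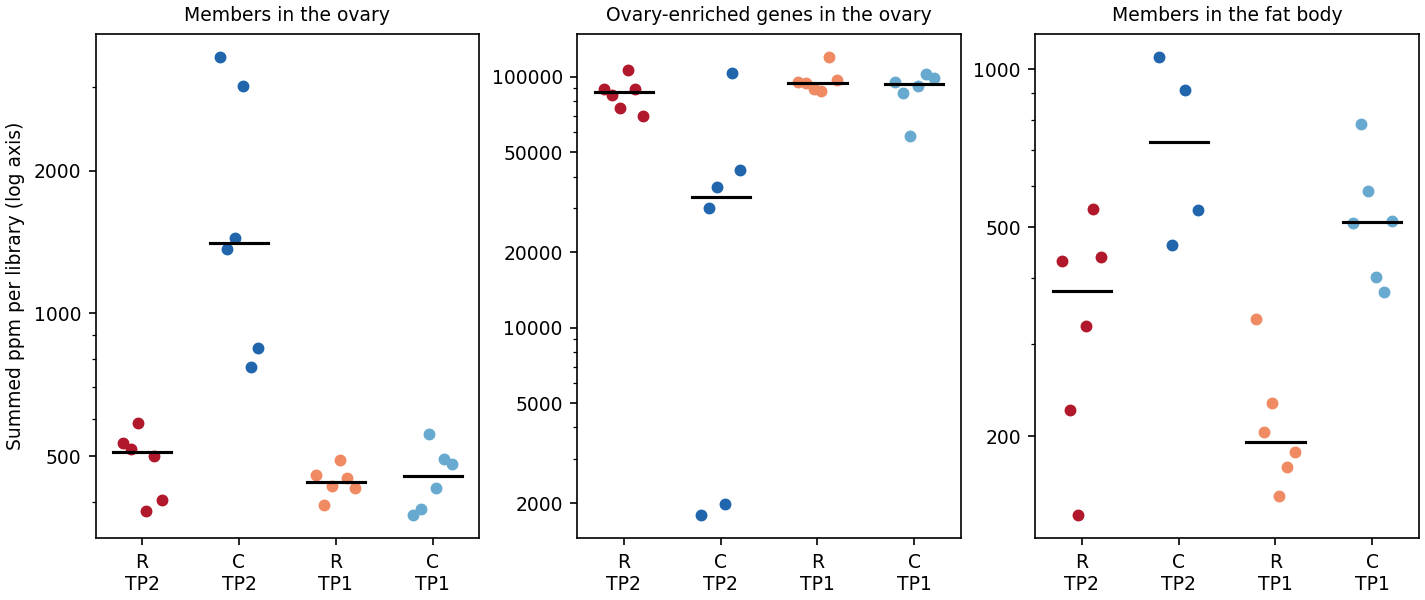
Summed ppm per library (log axis) in egg removal TP2, control TP2, egg removal TP1 and control TP1, for the 174 members in the ovary (left), the 172 ovary-enriched genes in the ovary (middle) and the members in the fat body (right), with a bar at the median. In the ovary all 6 control TP2 libraries lie above the other groups for the members, and 2 of them lie near 2000 ppm for ovary-enriched genes.

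Neighbourhood in the genome was the one property of the members that could be read apart from expression, from the gene order of the RefSeq assembly iyBomTerr1.2. Of 170 placed members, 24 lay next to another member (14.1%), against 309 of 9414 other genes next to a member (3.28%). The 24 formed 11 runs. The longest run had 4 members, LOC105667095, LOC100649369, LOC100649251 and LOC100649490, whose pairwise correlations over the 22 brain libraries ran from -0.10 to 0.82. In this run only LOC100649251 was called in the brain comparisons of the treatments. Among the pairs, LOC100647233 and LOC100651341 had a correlation of 0.89, LOC100648547 and LOC100644476 had 0.85, and LOC100642393 and LOC100642677 had 0.83. In LOC100631095 and LOC100631086 it was -0.17. The remaining pairs had 0.76, 0.63, 0.44, 0.35, 0.08 and 0.07. These are descriptions, and reads shared between near-identical neighbours could not be identified.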

How the data were processed

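The deposited tables give a signal per gene and queen for each tissue. Median ratios to the gene means match across the columns within a table, so these are read as normalized counts. The submitters' processing notes name kallisto 0.46.1, R 4.0.1 and DESeq2 1.28.1, with no role or order given. The labels state a stranded mRNA kit and 2 sequencing lanes. Genome build, annotation and filter are not stated by any source used here. Reads per library were estimated from the smallest positive values, so depth is approximate and no counting interval was computed. The 2 fat body control TP2 samples without a column were not analysed here.

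Each tissue was fitted with limma 3.58.1 (R 4.3.3, statmod 1.5.0) on log2(value + 1) with 4 group means, a variance trend and the robust option. Genes needed a mean of at least 1 in at least 1 group. P-values were adjusted by the Benjamini-Hochberg method over all genes of a comparison and called under 0.05. P-values measure the spread between single queens. The fit was tested on simulated data.

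The members, the lists and the tests were chosen with earlier results of these data known. Named genes were the 10 highest in brain ppm, the 5 called members of smallest p per direction and comparison, members at the limits of the rule, and those of extreme correlation, spread or ovary level. Lists by function, markers by symbol and sequence features were planned but not run, because the members carry only LOC identifiers and no sequence was at hand. Alternatives are in the closing section. Replicate numbers were not used to pair the samples. Samples sharing a number did not deviate together in every pair, which cannot exclude a pairing.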

Additional observations from a re-analysis of the deposited data

Results flagged for a closer look

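Among 70 groups of 4 to 6 libraries examined for the named members, 10 held a library far from the others of its group, by Dixon's gap against the range. The gap was taken on normalized counts and not on log2 values, and the groups share libraries. A chance rate of about 1 in 20 groups, which is for normally distributed values, therefore cannot be set against the 10.

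In the brain, LOC100649812 was 3796 in egg removal TP1 replicate 5, against a group median of 2846, and LOC100647233 was 1085 in the same library, against 455. LOC100648547 was 18302 in egg removal TP2 replicate 3, against a median of 25070. LOC100644903 was 32327 in control TP1 replicate 3 and LOC100644257 was 3985 in control TP2 replicate 2. In the fat body, LOC105666445 was 202.7 in control TP2 replicate 3, against a median of 38.17.

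In the ovary, 3 of the 4 values stood in control TP2 replicate 4, with LOC100649412 at 694.2, LOC100649414 at 7723 and LOC100642289 at 898.3. That library is 1 of the 2 with the lowest sum of ovary-enriched genes and the lowest estimated depth in the ovary. LOC100648676 was 242.0 in egg removal TP2 replicate 3, against a median of 91.65.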

How the results depend on the processing

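For the named members that were called, the log2 change in the calling comparison kept its sign under the fits tried, but with LOC100644055 as a covariate the brain calls at TP2 became 13 higher and 2 lower, with 5 genes shared, against 3 higher and 10 lower. The counts of members called in the brain were 6 at TP1, 13 at TP2, 5 for age in control and 0 for age in egg removal, and at TP2 they were 5 in fat body and 113 in ovary. Scaling to the same total gave 0 at TP1, at TP2 and for age in control (0.471%, 2.76% and 0.26% of all genes). It gave 9 in the fat body (3.6%). Weights per library gave 23, 30, 15, 5 and, in the fat body, 26 (8.6%, 22.4%, 11.1%, 0.443% and 18.6% of all genes). A fit of the 2 groups alone gave 6 for TP2 brain (5.2% of all genes) and 0 for fat body (0.0%). The libraries above 50000 ppm of LOC100644055 were left out in 1 fit, a choice made after seeing the data. The counts were then 0 at TP1 and 11 for age in control (0.0578% and 2.65% of all genes). At TP2 that fit had 1 egg removal library, so its count is not read. With LOC100644055 as a covariate the counts were 13 for age in control and 1 for age in egg removal (6.3% and 0.0866% of all genes). A value of 5 added before the log gave 13 in the fat body. The causes of these shifts were not tested, except that fewer samples remain where libraries are left out.

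Members chosen at a tissue difference over 4 (287 genes) gave 13, 25, 10, 8 and 183 calls at TP1, TP2, age in control, fat body and ovary. At over 6 (98 genes) these were 3, 5 and 2 in the brain and 59 in the ovary, from fewer genes. With 80 genes of highest correlation left out, 3 members were called for age in control.

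Leaving out 1 library at a time gave 4 to 21 at TP1, 4 to 21 at TP2, 2 to 7 for age in control, 0 to 2 for age in egg removal, 0 to 0 for the interaction, 0 to 23 for fat body and 97 to 118 for ovary. The 111 members over the tissue difference of 5 in control TP2 became 106 to 117 in such counts and 118 without ovary replicates 1 and 4, both chosen after seeing the data. With the replicate number as a block the counts were 7 at TP1, 11 at TP2, 6 for age in control, 3 for fat body and 112 for ovary, and 0 for age in egg removal and the interaction. Shares of all genes are not given for the block fit, the fit with 5 added or the fits without 1 library. Shifts in these counts are therefore not read as particular to the members. Same-numbered brain libraries correlated between -0.59 and 0.50 in their deviations at TP1, and whether the number stands for a pairing is not known. The enrichment counts kept within 1.5 times with 1 ppm added in place of 0.1 (106, 84 and 118 members in egg removal TP2, control TP2 and egg removal TP1). Depth is known only approximately, and low values in the ovary and fat body rest on few reads.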
